A study of Mus musculus with 42 samples.

Results

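The genes examined were *Gfra1*, *Ret*, *Etv5*, *Bcl6b*, *Id4*, *Lhx1*, *Nanos2*, *Eomes*, *Pax7* and *Shisa6*, which encode the receptor for glial cell line-derived neurotrophic factor (GDNF) and factors of spermatogonial stem cell (SSC) self-renewal. They were taken as a named list, chosen with earlier results of these data known, and all 10 were found by gene ID among the 27179 genes of the count table. RNA-seq had been performed on germ cells enriched from testes of mice at 10 days post-partum (dpp), in 4 groups of 3 libraries. Control mice were *Ddx4-Cre*; *Chd8* +/F and carried Cre and a floxed allele themselves, whereas the *Chd8* conditional knockout (CKO) mice were *Ddx4-Cre*; *Chd8* F/-. CHD8 is a chromatin remodeler, and *Ddx4-Cre* acts in germ cells. Somatic cells carried through a sort thus kept an intact floxed allele in both genotypes. Their other allele was wild-type in control mice and deleted in CKO mice. Cells with surface c-Kit, a receptor of differentiating spermatogonia, were retained on magnetic beads first, and Thy1+ cells, which include undifferentiated spermatogonia, were then taken from the flow-through. The methods give 3 male pups for each analysis without saying how many contributed to a library, so p-values measure the spread between these libraries, which may be partly technical.

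GDNF, secreted by somatic cells of the testis, binds the co-receptor GFRA1, and the complex activates the receptor tyrosine kinase RET on undifferentiated spermatogonia. RET signalling through SRC-family, PI3K-AKT and RAS-MAPK kinases induces the transcription factors ETV5, BCL6B and LHX1, each of which is needed in cultured stem cells or in the testis for self-renewal. ID4, an inhibitor of basic helix-loop-helix factors, and NANOS2, an RNA-binding repressor of differentiation, also mark cells at the top of the hierarchy. EOMES, PAX7 and SHISA6 mark smaller subsets of undifferentiated spermatogonia.

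Promoter sequence was taken from RefSeq (GRCm38.p6, the assembly called mm10) for 7 of the 10 genes. The 250 bases before the annotated start are shown, 5′ to 3′ on the strand of the gene, for 3 genes that were lower together in CKO Thy1+ libraries (*Gfra1*, *Lhx1* and *Nanos2*) and for *Etv5*, which was not. Capitals mark 2 motifs: CCGGAA (or TTCCGG, the same letters on the other strand), the core bound by ETS-family factors such as ETV5, and CANNTG, the E-box bound by the basic helix-loop-helix factors that ID proteins sequester, which reads the same on both strands. No match of one motif overlapped a match of the other. Of all 32851 promoter windows of this length, 12.0% held the ETS core and 66.2% held an E-box.
*Gfra1* (chr19:58455399-58455648, minus strand): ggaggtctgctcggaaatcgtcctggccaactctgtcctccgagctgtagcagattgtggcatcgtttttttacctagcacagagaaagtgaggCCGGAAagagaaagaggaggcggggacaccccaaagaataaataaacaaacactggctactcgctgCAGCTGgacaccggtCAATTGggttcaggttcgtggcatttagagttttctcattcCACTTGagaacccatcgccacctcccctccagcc
*Lhx1* (chr11:84525535-84525784, minus strand): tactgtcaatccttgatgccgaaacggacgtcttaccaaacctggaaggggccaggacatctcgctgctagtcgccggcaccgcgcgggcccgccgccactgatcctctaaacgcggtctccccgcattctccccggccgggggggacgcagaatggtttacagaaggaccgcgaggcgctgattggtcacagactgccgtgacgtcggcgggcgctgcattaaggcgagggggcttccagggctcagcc
*Nanos2* (chr7:18987274-18987523, plus strand): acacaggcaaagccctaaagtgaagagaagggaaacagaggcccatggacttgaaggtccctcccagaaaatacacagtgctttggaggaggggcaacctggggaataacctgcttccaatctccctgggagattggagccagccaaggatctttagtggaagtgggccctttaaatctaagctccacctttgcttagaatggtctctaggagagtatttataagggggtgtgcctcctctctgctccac
*Etv5* (chr16:22439571-22439820, minus strand): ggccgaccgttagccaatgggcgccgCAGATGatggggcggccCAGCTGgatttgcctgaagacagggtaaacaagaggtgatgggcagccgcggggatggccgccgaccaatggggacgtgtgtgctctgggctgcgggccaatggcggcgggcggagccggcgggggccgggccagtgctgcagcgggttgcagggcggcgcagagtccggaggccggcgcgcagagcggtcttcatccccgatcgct
The *Gfra1* window held 1 ETS core and 3 E-boxes, and the *Etv5* window held 2 E-boxes and no ETS core. Neither motif was found in the windows of *Lhx1* and *Nanos2*, nor in those of *Id4*, *Eomes*, *Pax7* and the other annotated start of *Etv5*. The *Gfra1* start used here lies 932 bases upstream of the gene as counted, while the windows of *Lhx1*, *Nanos2* and *Etv5* end at the counted start.

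Library totals ranged from 32266861 to 45396233 counts. Low counts were more often even than odd (65.6% to 69.5% of values between 1 and 19), so most fragments had added a count for each of their reads. Levels are given as CPM, the counts scaled to the library total after TMM normalization, with the mean ± SD of 3 libraries, and genes are compared with each other only as CPM per kb of counted exon. The counts of *Chd8* covered the whole gene and did not show the deletion of its internal exons (270 ± 9.41 CPM in control and 274 ± 20.7 in CKO Thy1+ libraries, 281 ± 22 and 305 ± 9.49 in c-Kit+ libraries), so they do not check the genotype. *Thy1* ranged from 11.7 to 17.1 CPM in Thy1+ and from 0.436 to 1.07 CPM in c-Kit+ libraries, and *Kit* from 171 to 432 and from 626 to 782 CPM, respectively. Both sorts held transcripts of somatic cells as well. The summed level of 7 germ cell markers was 1334 to 2558 CPM in Thy1+ and 2250 to 3272 CPM in c-Kit+ libraries, whereas 7 stromal markers summed to 11122 to 19187 and to 1816 to 4379 CPM. Among Thy1+ libraries, those of replicate 1 stood apart in 10 Sertoli cell markers, which summed to 910 CPM in control and 1226 CPM in CKO replicate 1 against 253 to 528 CPM in the other 4.

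In control Thy1+ libraries the receptor genes and *Etv5* were the most abundant members per kb of exon. *Etv5* was at 25.5 ± 5.0, *Gfra1* at 23.1 ± 6.34 and *Ret* at 20.3 ± 5.43 CPM per kb. Their ranges overlapped, but within each library *Ret* was below both *Etv5* and *Gfra1*. The order of *Etv5* and *Gfra1* differed between libraries. *Id4* (9.83 ± 3.71) and *Bcl6b* (9.05 ± 2.00 CPM per kb) followed and were not separated from each other. *Lhx1* came next at 3.56 ± 0.847 CPM per kb. *Nanos2* (1.97 ± 0.503) was above *Shisa6* (1.28 ± 0.657) and *Eomes* (1.18 ± 0.297 CPM per kb) within each library, though the ranges overlapped. *Shisa6* and *Eomes* could not be ordered, and *Pax7* was lowest at 0.481 ± 0.130 CPM per kb. On a scale of all 18002 genes kept in the 12 libraries, *Etv5* stood above 79.1% of genes in control Thy1+ libraries and *Pax7* above 14.7%. In CKO Thy1+ libraries *Etv5* led at 22.2 ± 2.72 CPM per kb, now apart from *Gfra1* (12.5 ± 0.256) and *Ret* (10.3 ± 0.888 CPM per kb). *Bcl6b* (6.19 ± 0.369) and *Id4* (5.45 ± 1.22 CPM per kb) were again not separated, and *Gfra1* and *Ret* stood above 61.1% and 56.7% of genes. In control c-Kit+ libraries *Etv5* was also highest, at 4.5 ± 0.570 CPM per kb, followed by *Bcl6b* at 2.52 ± 0.225. *Id4* (1.60 ± 0.177) and *Ret* (1.49 ± 0.114 CPM per kb) overlapped, *Ret* was above *Gfra1* (1.30 ± 0.0620) in all 3 libraries, and *Shisa6* (1.13 ± 0.462 CPM per kb) overlapped each of these genes. In CKO c-Kit+ libraries *Etv5* was at 9.91 ± 1.67 CPM per kb, and *Bcl6b* (2.76 ± 0.269), *Shisa6* (1.91 ± 0.148) and *Id4* (1.91 ± 0.417 CPM per kb) came after it.

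**Figure D1:**
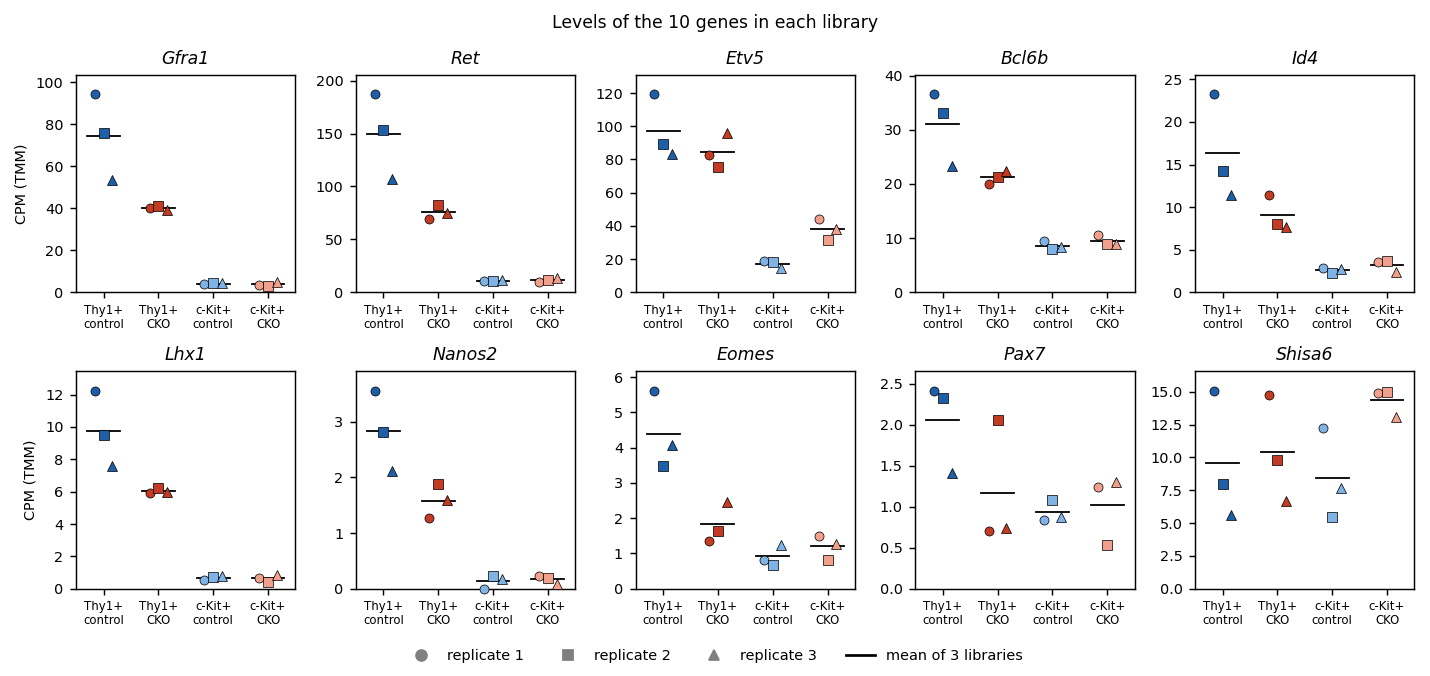
Level of each of the 10 genes in every library, in CPM after TMM normalization on a linear axis that starts at 0, with a separate scale for each gene. Symbols give the replicate number and bars the mean of 3 libraries; for *Gfra1* the 3 CKO Thy1+ libraries lie between 39.4 and 41.0 CPM, below all control Thy1+ libraries, and for *Etv5* the CKO c-Kit+ libraries lie above the control c-Kit+ libraries.

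The members were compared first between the populations, to see how far each distinguished undifferentiated from differentiating cells. In control libraries 9 of 10 members were called higher in Thy1+ than in c-Kit+ cells (edgeR's quasi-likelihood test with a Benjamini-Hochberg FDR under 0.05, and over 0.5 in absolute log2 fold change), against 20.7% of all 17350 genes tested. The median log2 difference of the members was 2.59 and that of all tested genes 0.03. *Gfra1* differed most among the abundant members, by a log2 difference of 4.18 (SE 0.22, FDR = 1.7e-05). *Ret* (3.80, SE 0.21) and *Lhx1* (3.86, SE 0.28) differed by nearly as much. The transcription factor genes *Etv5* and *Bcl6b* differed by less, with log2 differences of 2.53 (SE 0.17) and 1.87 (SE 0.19). *Nanos2* was nearly absent from control c-Kit+ cells: the Thy1+ replicates held 159, 104 and 76 counts and the c-Kit+ replicates 0, 8 and 6, a log2 difference of 4.39 (SE 0.64, FDR = 0.00115). *Id4* (2.65, SE 0.29), *Eomes* (2.29, SE 0.32) and *Pax7* (1.16, SE 0.32, FDR = 0.0221) were also called. The call of *Pax7* was lost in the fit of all 12 libraries and whenever 1 library other than Thy1+ replicate 3 was left out. All 7 stromal markers were higher in Thy1+ cells of the same controls (median 2.73), and 3 of 7 germ cell markers were lower (median −0.36).

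*Shisa6* was the exception. It encodes a membrane protein studied as a WNT inhibitor of a stem cell subset, and it had 15.1, 7.97 and 5.64 CPM in control Thy1+ and 12.2, 5.44 and 7.70 CPM in control c-Kit+ libraries. The groups overlapped throughout, and the log2 difference was 0.21 (SE 0.40, FDR = 0.709, edgeR's quasi-likelihood test). In both populations control replicate 1 held its highest value.

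In CKO libraries, 7 of 10 members were called higher in Thy1+ than in c-Kit+ cells, against 15.3% of 17346 genes. The same genes as in controls were called except *Eomes* and *Pax7*, and the median log2 difference of the members was 1.38 (all genes −0.03). *Gfra1* differed by 3.45 (SE 0.18), *Ret* by 2.72 (SE 0.13) and *Etv5* by 1.20 (SE 0.14). *Eomes* had 1.36, 1.65 and 2.46 CPM in CKO Thy1+ and 1.51, 0.828 and 1.27 CPM in CKO c-Kit+ libraries, so that its groups overlapped (log2 difference 0.64, SE 0.35, FDR = 0.199, edgeR). Markers of other cells differed between the same CKO libraries. All 7 stromal (median 2.20), all 6 macrophage, 5 of 6 peritubular myoid and 2 of 6 endothelial markers were called higher in Thy1+ cells, all 7 Leydig (median −2.07), all 4 tested mast cell and 1 of 7 germ cell markers were called lower, and 0 of 10 Sertoli markers were called (0 at an unadjusted p under 0.05). Their part in the members' values was not tested. Each population comparison shares its libraries with the genotype comparisons that follow.

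The genotypes were then compared within Thy1+ cells. Most members were lower in CKO libraries, and 9 of 10 had a negative log2 fold change. For 7 (*Gfra1*, *Ret*, *Bcl6b*, *Id4*, *Lhx1*, *Nanos2* and *Eomes*) every CKO library was below every control library in CPM, against 10.7% of 17416 genes that did not overlap in this direction. The members had a median log2 fold change of −0.81, against 0.02 for all tested genes. The quasi-likelihood test without a block called 0 of the 10 (and 0% of all genes), with 7 members at an unadjusted p under 0.05, as were 12.4% of all genes. By edgeR's exact test *Gfra1*, *Ret* and *Eomes* were called lower, against 1.57% of all genes, and DESeq2 called the same 3, among 326 genes lower and 52 higher in all. Control and CKO libraries of the same replicate number deviated together from their group means (r of 0.399 to 0.646 across genes), and with the replicate number as a block the test called these 7 members lower, against 4.92% of all genes. *Etv5*, *Pax7* and *Shisa6* were not called in either fit. In bulk libraries, fewer cells of a type and less RNA per cell cannot be told apart.

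Both receptor genes fell in the paired fit. *Gfra1* (gene ID 14585, chr19:58236692-58454466, counted over 10 exon blocks) had 94.3, 75.9 and 53.6 CPM in control replicates 1, 2 and 3 and 40.3, 41.0 and 39.4 CPM in CKO replicates. The control libraries spread over a wide range while the CKO libraries were almost level, below the lowest control. Its log2 fold change was −0.88 (SE 0.19, FDR = 0.203) without the block and −0.85 (SE 0.10, FDR = 2.2e-05) with it. *Ret* (gene ID 19713, chr6:118151748-118197744) had 187, 153 and 107 CPM in control and 69.7, 82.7 and 75.1 CPM in CKO libraries. Its groups did not overlap either, and its log2 fold change was −0.97 (SE 0.19, FDR = 0.183) without and −0.94 (SE 0.11, FDR = 1.5e-05) with the block. Within replicates 1, 2 and 3, the CKO level was 0.427, 0.541 and 0.735 of the control level for *Gfra1*, and 0.373, 0.540 and 0.699 for *Ret*. The counted exons of *Gfra1* overlap those of *Gm10007*, and the counting did not use strand, so reads of this pair cannot be told apart.

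Of the 3 transcription factor genes downstream of the receptor, *Bcl6b* and *Lhx1* were called lower in the paired fit and *Etv5* was not, a difference between genes that was not tested. *Etv5* (gene ID 104156, chr16:22381313-22439570) had 119, 89.6 and 83.5 CPM in control and 82.7, 75.5 and 96.0 CPM in CKO libraries. The groups overlapped, CKO replicate 3 was above its control, and the log2 fold change was −0.19 with the block (SE 0.09, FDR = 0.153, edgeR). *Bcl6b* (gene ID 12029, chr11:70224127-70229798) had 36.5, 33.1 and 23.3 CPM in control and 19.9, 21.3 and 22.4 CPM in CKO libraries. These groups did not overlap, but in replicate 3 the CKO level was 0.961 of the control level, and the log2 fold change was −0.52 with the block (SE 0.12, FDR = 0.00368), near the minimum of 0.5. *Lhx1* (gene ID 16869, chr11:84519379-84525534), a LIM homeobox gene, had 12.2, 9.49 and 7.61 CPM in control and 5.89, 6.20 and 5.96 CPM in CKO libraries. It resembled *Gfra1* in that the CKO libraries were nearly equal and the controls were not, and its log2 fold change with the block was −0.67 (SE 0.16, FDR = 0.00439).

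Of the factors that are not direct parts of the pathway, *Id4*, *Nanos2* and *Eomes* fell in the paired fit. *Id4* (gene ID 15904, chr13:48261427-48264036) had 23.2, 14.3 and 11.5 CPM in control and 11.4, 8.08 and 7.68 CPM in CKO libraries. CKO replicate 1 lay just under control replicate 3, and the CKO level was between 0.490 and 0.670 of the control level within replicates (log2 fold change −0.81 with the block, SE 0.12, FDR = 1.5e-04). Its exons overlap those of *A330033J07Rik*, and reads of both cannot be told apart without strand. *Nanos2* (gene ID 378430, chr7:18987524-18988962), counted over a single exon block, had 3.56, 2.82 and 2.11 CPM in control and 1.28, 1.88 and 1.59 CPM in CKO libraries. All its CKO values lay below all controls, on 47 to 82 counts per library, and the log2 fold change was −0.82 with the block (SE 0.29, FDR = 0.0416). *Eomes* (gene ID 13813, chr9:118478189-118486132), a T-box factor, had 5.62, 3.47 and 4.08 CPM in control and 1.36, 1.65 and 2.46 CPM in CKO libraries. It showed the largest decrease of the 10, at −1.27 on the log2 scale in both fits (SE 0.27, FDR = 0.00210 with the block).

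*Pax7* and *Shisa6* did not pass. *Pax7* (gene ID 18509, chr4:139738081-139832968), a paired-box factor, had 2.42, 2.33 and 1.42 CPM in control and 0.706, 2.06 and 0.745 CPM in CKO libraries. CKO replicate 2 lay within the control range on 90 counts while the other CKO libraries held 23 and 26 counts, and the log2 fold change was −0.91 with the block (SE 0.35, FDR = 0.0628). *Shisa6* (gene ID 380702, chr11:66211725-66526126) had 14.7, 9.81 and 6.64 CPM in CKO libraries, close to the control libraries of the same number (log2 fold change 0.17 with the block, SE 0.13, FDR = 0.375, edgeR). Across the 10 members, 8 were lower in CKO in 3 of 3 same-numbered pairs, against 27.3% of all genes. The ratio was lowest in replicate 1 for all 8 of these.

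Markers of germ cells and of other cells were examined in the same libraries. Leaving out both libraries of replicate 1, the pair high in Sertoli markers, the paired fit called 4 members lower (*Gfra1*, *Ret*, *Id4* and *Eomes*), among 766 genes lower and 709 higher in all. *Bcl6b*, *Lhx1* and *Nanos2* were no longer called. The median of the members was then −0.50. The 7 germ cell markers were lower in CKO Thy1+ libraries (0 called without a block, 1 of 7 lower with it, median log2 fold change −0.31), and their sum was 1734, 2558 and 1823 CPM in control and 1334, 2217 and 1392 CPM in CKO libraries. With the block, 7 of 10 Sertoli, 1 of 7 stromal, 0 of 6 endothelial, 0 of 7 Leydig, 0 of 6 peritubular myoid, 1 of 6 macrophage and 1 of 4 tested mast cell markers were called higher. Stromal markers summed to 11122 to 14495 CPM in control and 12459 to 19187 CPM in CKO Thy1+ libraries, and endothelial markers to 188 to 256 and 243 to 367 CPM. Macrophage markers summed to 75.8 to 141 CPM in control and 116 to 169 CPM in CKO Thy1+ libraries, and mast cell markers to 2.24 to 4.34 and 3.39 to 7.98 CPM. The mast cell marker *Ms4a2* was at 0 in all control and *Fcer1a* in all CKO Thy1+ libraries, and no other marker was at 0 throughout a group. Scaled to the germ cell marker counts instead, the median of all genes moved to 0.35 and that of the members to −0.54. *Gfra1* was at 37.8 ± 14.4 counts per 1000 germ marker counts in control and 25.7 ± 6.28 in CKO libraries, and *Ret* at 75.5 ± 28.0 and 47.8 ± 9.17. Per germ marker count, every CKO library was still below every control library for *Ret*. The genotypes overlapped for *Gfra1*, *Bcl6b*, *Id4*, *Lhx1*, *Nanos2* and *Eomes*. Compared by replicate number, *Gfra1*, *Ret*, *Id4*, *Nanos2* and *Eomes* were lower in CKO in every pair. In replicate 3, *Bcl6b* (16.1 in CKO against 12.8 in control) and *Lhx1* (4.28 against 4.17) were not. The share of all genes with either pattern was not computed on this scale. On this scale *Etv5* was at 49.9 ± 17.2 and 55.0 ± 18.5, and its log2 fold change turned to 0.14. The part of the cell makeup in these results was not tested.

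**Figure D2:**
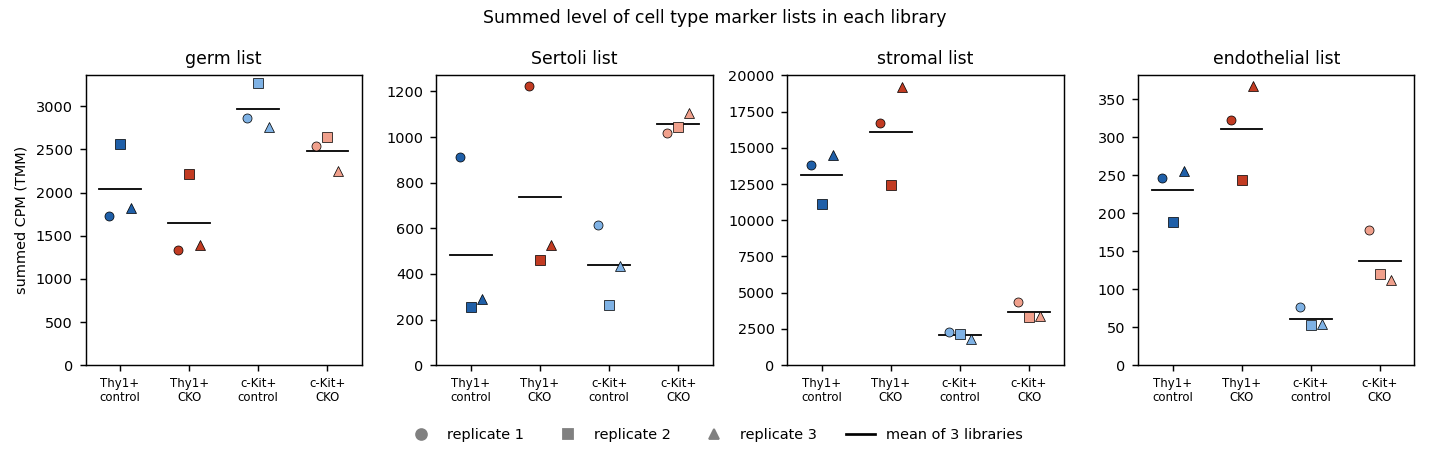
Summed level of the germ, Sertoli, stromal and endothelial marker lists in every library, in CPM after TMM normalization on linear axes that start at 0. Symbols give the replicate number and bars the mean of 3 libraries; replicate 1 is high in Sertoli markers in both Thy1+ groups (910 and 1226 CPM), and the 3 CKO c-Kit+ libraries (1019 to 1106 CPM) lie above all control c-Kit+ libraries.

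In c-Kit+ cells no member was called lower, against 7.41% of 17134 genes. Of the 9 tested, 2 were called higher, *Etv5* and *Shisa6*, against 14.8% of genes called higher. The members had a median log2 fold change of 0.07 and all genes one of 0.01. *Etv5* had 18.8, 18.1 and 14.7 CPM in control and 44.1, 31.4 and 38.1 CPM in CKO libraries. Every CKO library was above every control library, and the log2 fold change was 1.08 (SE 0.14, FDR = 0.000413, edgeR's quasi-likelihood test). *Shisa6* had 12.2, 5.44 and 7.70 CPM in control and 14.9, 15.0 and 13.1 CPM in CKO libraries. It also did not overlap (2 members against 31.6% of all genes with every CKO library above every control), differing by 0.71 on the log2 scale (SE 0.24, FDR = 0.0394), but control replicate 1 came close to the CKO range, and the call was lost in the fit of all 12 libraries and whenever 1 library other than that replicate was left out (FDR between 0.0675 and 0.118). The counted exons of *Etv5* overlap those of another gene in the table (gene ID 100862159, which has no symbol there).

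The receptor genes were low in c-Kit+ cells and did not pass the test. *Gfra1* had 3.96, 4.35 and 4.24 CPM in control and 3.51, 3.04 and 4.86 CPM in CKO libraries (log2 fold change −0.20, SE 0.21, FDR = 0.487, edgeR). *Ret* had 10.3, 10.6 and 11.9 CPM in control and 10.2, 11.7 and 13.5 CPM in CKO libraries (0.05, SE 0.14, FDR = 0.782). *Bcl6b* was the other GDNF-responsive factor with a measurable level, at 9.47, 7.95 and 8.45 CPM in control and 10.5, 8.91 and 8.92 CPM in CKO libraries (0.07, SE 0.14, FDR = 0.706). The groups of all 3 genes overlapped. *Id4* (2.32 to 3.63 CPM), *Lhx1* (0.414 to 0.840), *Eomes* (0.687 to 1.51) and *Pax7* (0.536 to 1.30 CPM) overlapped as well, with log2 fold changes between −0.18 and 0.33. *Nanos2* was removed by the filter on low counts, with 0, 8 and 6 counts in control and 8, 8 and 3 counts in CKO libraries, and was not tested here.

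Markers of somatic cells were higher in the same CKO c-Kit+ libraries. Of the 10 Sertoli markers 9 were called higher, with a sum of 263 to 614 CPM in control and 1019 to 1106 CPM in CKO libraries. All 7 stromal and all 6 endothelial markers, 4 of 7 Leydig, 3 of 6 peritubular myoid, 0 of 6 macrophage and 3 of 4 tested mast cell markers were called higher too, and 1 of 7 germ cell markers was called lower. With the block, 7 of 7 Leydig and 3 of 6 macrophage markers were called. Stromal markers summed to 1816 to 2274 CPM in control and 3293 to 4379 CPM in CKO c-Kit+ libraries, endothelial markers to 53.3 to 76.0 and 112 to 178 CPM, and germ cell markers to 2757 to 3272 and 2250 to 2645 CPM. *Etv5* is also known from Sertoli cells, and GDNF is a product of Sertoli and peritubular cells. Scaled to germ cell marker counts, *Etv5* was at 5.81 ± 0.644 counts per 1000 in control and 15.4 ± 3.07 in CKO libraries, a log2 fold change of 1.41 while the median of all genes was 0.33. Whether somatic transcripts contributed to the *Etv5* value was not tested.

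**Figure D3:**
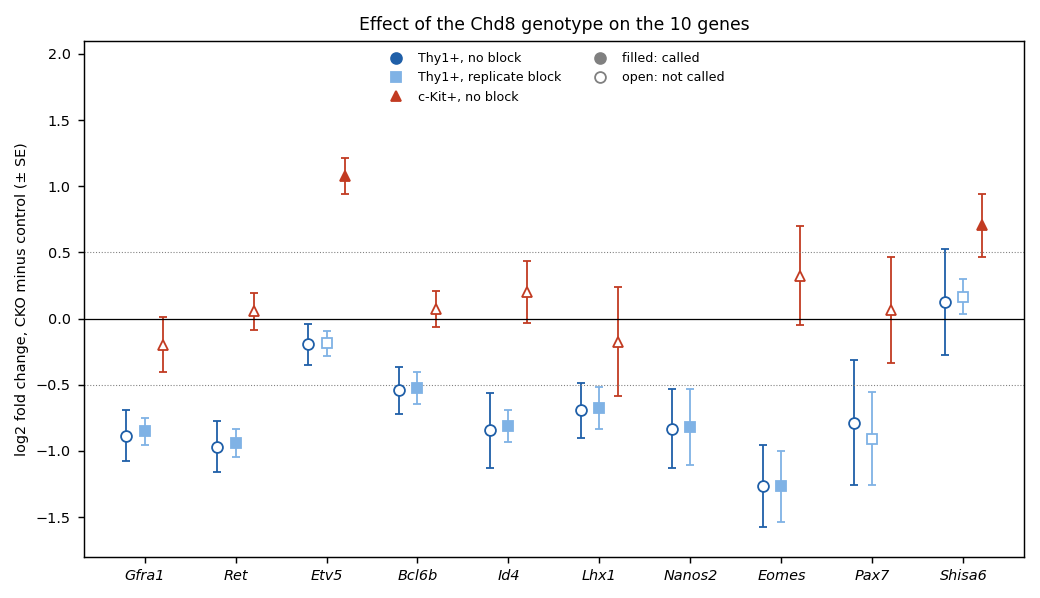
Log2 fold change of CKO against control for each of the 10 genes, with bars of 1 standard error: in Thy1+ cells without (circles) and with the replicate block (squares), and in c-Kit+ cells without a block (triangles). Filled symbols passed the test and lie beyond the dotted lines at 0.5; 7 genes are filled on the lower side in Thy1+ cells with the block, *Etv5* and *Shisa6* on the upper side in c-Kit+ cells, and *Nanos2* was not tested in c-Kit+ cells.

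An interaction term over the 12 libraries compared the genotype effect of c-Kit+ cells with that of Thy1+ cells. All 10 members had a more positive effect in c-Kit+ than in Thy1+ cells, with a median difference of 1.00 on the log2 scale (all genes 0.08, with 38% of them negative). *Nanos2*, *Lhx1*, *Eomes* and *Pax7* averaged only 0.134, 0.684, 0.917 and 0.934 CPM in control c-Kit+ libraries, which limits how far a decrease could be measured there. The part of these low levels in the differences was not tested. No member was called by edgeR's quasi-likelihood test without a block (0% of 18002 genes), with 6 members at an unadjusted p under 0.05, as were 10% of all genes. DESeq2 called *Etv5* and *Ret*, among 44 genes more positive and 20 more negative in all. The largest difference by its standard error was that of *Etv5*, at 1.34 (SE 0.23, FDR = 0.235), followed by *Ret* at 1.09 (SE 0.24, FDR = 0.336, edgeR). When the replicate number entered as a block, *Etv5* (FDR = 0.0162) and *Ret* (FDR = 0.0419) were called, against 2.48% of genes, but same-numbered libraries did not meet the limit for pairing here.

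Ratios within a library do not depend on its scaling. They can still differ with the cell makeup of the library, whose part was not tested. Per kb of exon, *Ret* was at 0.879 ± 0.00768 of *Gfra1* in control Thy1+ libraries, the smallest spread of any ratio computed, and at 0.827 ± 0.0637 in CKO Thy1+ libraries. These ranges overlapped, while both genes alone spread over a wide range in the controls. The ratio of *Etv5* to *Gfra1* ran from 0.996 to 1.31 in control and from 1.55 to 2.06 in CKO Thy1+ libraries. It ran from 2.93 to 4.0 in control and from 6.61 to 10.6 in CKO c-Kit+ libraries, so the genotypes did not overlap in either population. The ratio of *Bcl6b* to *Etv5* was 0.564 ± 0.0756 in control and 0.281 ± 0.0309 in CKO c-Kit+ libraries. In Thy1+ libraries it was 0.356 ± 0.0517 and 0.281 ± 0.0294, with ranges that overlapped by little.

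**Figure D4:**
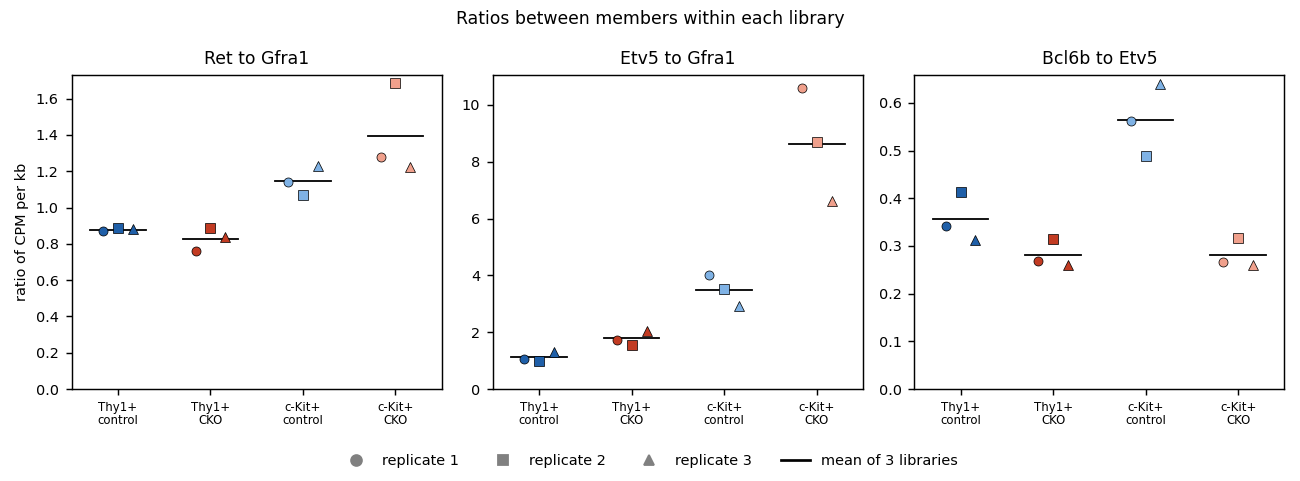
Ratios of CPM per kb between members within each library (*Ret* to *Gfra1*, *Etv5* to *Gfra1* and *Bcl6b* to *Etv5*), on linear axes that start at 0. Symbols give the replicate number and bars the mean of 3 libraries; the ratio of *Etv5* to *Gfra1* is higher in all CKO than in all control libraries of each population, up to 10.6 in CKO c-Kit+ cells.

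Members also moved together among libraries. Over the 6 Thy1+ libraries, the log2 CPM of *Gfra1* correlated with that of *Ret* and of *Lhx1* at r = 0.99 each, with *Bcl6b* at 0.97 and with *Nanos2* at 0.96. *Etv5* (0.71) and *Shisa6* (0.24) followed *Gfra1* less. Over all 12 libraries and 13486 genes whose log2 CPM averaged 1 or more, the genes most like *Gfra1* were *Lhx1* (r = 0.999), *Ret* (0.996), *Etv4* (0.995), *Nefm* (0.992) and *Pmaip1* (0.988). Those most like *Etv5* were *Macroh2a2* (0.994), *Kif3c* (0.989), *Lima1* (0.984), *Sirpa* (0.983) and *Spry4* (0.983). These values are descriptions over libraries that share group differences; after subtraction of the group means, r with *Gfra1* was 0.93 for *Lhx1*, 0.86 for *Ret*, 0.82 for *Etv4*, 0.90 for *Nefm* and 0.58 for *Pmaip1*. With *Etv5* it was then 0.90 for *Macroh2a2*, 0.64 for *Kif3c*, 0.72 for *Lima1*, 0.69 for *Sirpa* and 0.91 for *Spry4*.

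Other genes of the pathway were examined by 7 lists with 99 genes. In Thy1+ cells the quasi-likelihood test without the block called 0 of 96 tested genes (26 at an unadjusted p under 0.05). The exact test of edgeR called 9, among 20 genes higher and 274 lower in all. DESeq2 called 11, among 52 higher and 326 lower in all. With the block 11 genes were called higher and 13 lower, against 3.20% and 4.92% of all genes. In c-Kit+ cells 18 of 94 were called higher and 7 lower without a block, against 14.8% and 7.41% (with the block 21 and 7, against 15.8% and 7.51%). The medians were −0.01 in Thy1+ and −0.03 in c-Kit+ cells.

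Ligands and co-receptors came first. Of 7 tested in Thy1+ cells, *Artn* (log2 fold change 1.02, SE 0.24), *Gdnf* (0.85, SE 0.14) and *Gfra2* (0.71, SE 0.17) were called higher with the block and *Gfra3* (−0.91, SE 0.20) lower. ARTN is a relative of GDNF, and GFRA2 and GFRA3 are co-receptors for other members of that family. In c-Kit+ cells *Gdnf* was called higher, at 11.9 CPM in control and 29.9 CPM in CKO libraries (1.26, SE 0.12), *Gfra3* lower (−0.60, SE 0.17), and with the block *Gfra2* higher (0.77, SE 0.28). Of 35 tested RET adaptors and kinases, only *Grb7* (−0.64, SE 0.17), an adaptor that binds RET, was called lower in Thy1+ cells with the block. *Lyn* (0.82, SE 0.29) and *Fyn* (0.56, SE 0.08), both SRC-family kinases, and *Sos2* (0.73, SE 0.09), an activator of RAS, were called higher in c-Kit+ cells. Markers of somatic cells, given above, were measured in the same libraries of each population. Their part in the values of these ligands, co-receptors, adaptors and kinases was not tested.

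Genes that respond to GDNF or FGF signalling were called in both directions in Thy1+ cells and only as higher in c-Kit+ cells. Of 19 tested in Thy1+ cells, 4 were called higher and 2 lower with the block. The higher ones with the largest changes were the immediate early genes *Egr1* and *Fos* (0.70 each, SE 0.05) and *Spry2* (0.63, SE 0.08), which encodes an inhibitor of RAS-MAPK signalling; the lower ones were *T* (−1.71, SE 0.28), a T-box factor, and *Egr4* (−0.63, SE 0.12). In c-Kit+ cells 7 of 18 were called higher and none lower, with a median of 0.58. *Spry4* (1.54, SE 0.20), *Dusp6* (1.52, SE 0.28) and *Dusp4* (1.09, SE 0.20) changed most, of which the DUSP proteins are phosphatases of MAP kinases. *Dusp6* was at 16.1 CPM in control and 48.3 CPM in CKO libraries. The somatic markers given above were higher in the same c-Kit+ libraries. In Thy1+ libraries 7 of 10 Sertoli markers were called higher with the block. The part of somatic cells in the values of either population was not tested. Of the 7 FGF ligands and receptors, *Fgf2* was called higher with the block in Thy1+ cells (0.51, SE 0.17), and in c-Kit+ cells *Fgf2* (0.83, SE 0.28) and *Fgfr2* (0.68, SE 0.16) were called higher and *Fgfr3* (−0.84, SE 0.12) lower.

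The remaining lists held other stem cell factors and the partners of ID4 and NANOS2. Of 18 other factors of undifferentiated spermatogonia tested in Thy1+ cells, 17 had a negative log2 fold change without the block, and 9 were called lower with the block and none higher (median −0.57 in that fit). The largest decreases were those of *Plvap* (−1.61, SE 0.17), a marker of a stem cell subset, *Pou5f1* (−1.58, SE 0.25), which encodes OCT4, and *Foxc2* (−1.22, SE 0.14), a forkhead factor of quiescent stem cells. In c-Kit+ cells 5 of 17 were called lower, led by *Lin28a* (−0.995, SE 0.07), an RNA-binding protein, *Pou5f1* (−0.93, SE 0.28) and *Upp1* (−0.68, SE 0.23), and *Neurog3* (0.67, SE 0.24) was called higher, as was *Tspan8* with the block (0.91, SE 0.32). *Id1*, *Id2* and *Id3*, the relatives of *Id4*, were called higher in Thy1+ cells with the block, by 0.52 (SE 0.08), 0.53 (SE 0.06) and 0.51 (SE 0.06) on the log2 scale. Without the block they were not called (FDR between 0.340 and 0.385, edgeR's quasi-likelihood test), and their genotypes overlapped. In c-Kit+ cells 4 of the 6 tested were called higher, led by *Id3* (1.15, SE 0.22), *Id2* (1.06, SE 0.18) and *Id1* (0.93, SE 0.20). The somatic markers given above come from the same libraries, and their part in the values of these relatives was not tested. None of 4 partners of NANOS2 was called in either population.

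**Figure D5:**
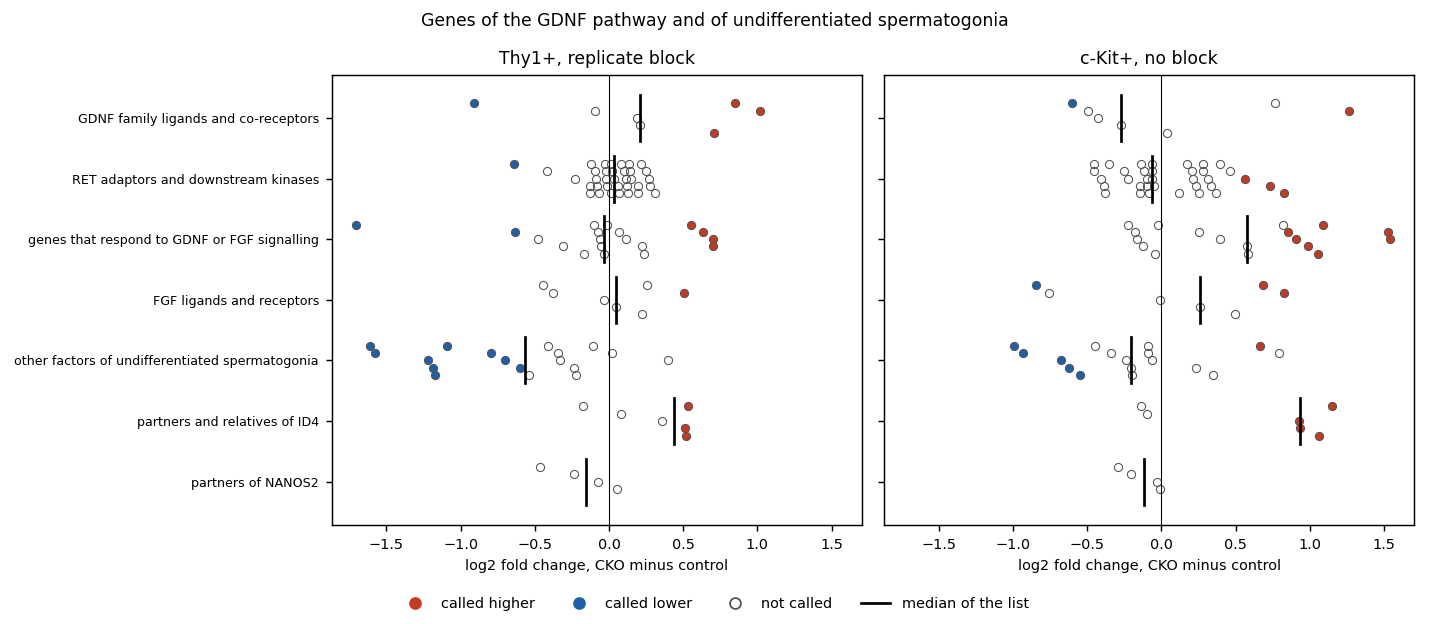
Log2 fold change of CKO against control for the tested genes of 7 lists, in Thy1+ cells with the replicate block (left) and in c-Kit+ cells without it (right). Each circle is 1 gene, filled red where called higher and blue where called lower, offset vertically for visibility, and the bar is the median of the list; 9 of the other factors of undifferentiated spermatogonia are blue on the left, and 7 of the genes that respond to GDNF or FGF signalling are red on the right.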

How the data were processed

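RNA-seq libraries of 12 samples were analysed. The authors trimmed paired-end reads with Trimmomatic (version 0.39), mapped them to mm10 with HISAT2 (version 2.1.0) and counted them with featureCounts; the deposited values are gene counts without normalization, and the file's header names version 2.0.3 with no option for strand or fragments. Gene IDs were given symbols for 25275 of 27179 genes. Counts were tested with edgeR 4.0.16 in R 4.3.3 (TMM, filterByExpr, quasi-likelihood F test, Benjamini-Hochberg over all tested genes). Genes were called at FDR under 0.05 and, except for the interaction, an absolute log2 fold change over 0.5. The 10 members and the gene lists were chosen with earlier results of these data known. Named besides the members were, per list and direction, at most 3 genes called without or with the block, ranked by size. The quasi-likelihood tests of the 4 comparisons of groups were tested on simulated data, counts drawn for the same genes with known fold changes in a set of them. ChIP-seq samples of the series were not used here.

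The labels give replicate numbers without saying what they mark. After subtraction of the group means, libraries with the same number correlated at 0.399 to 0.646 between Thy1+ genotypes, 0.121 to 0.210 between c-Kit+ genotypes and 0.173 to 0.425 between control populations (limit 0.1 for every pair), so these were treated as paired, and the blocked value is given where it changed a call. The CKO populations (1 of 3 pairs over 0.1) and the interaction (13 of 18) were not. Alternatives were the edgeR exact test, DESeq2 1.42.0, its size factors in edgeR, library size only, scaling to germ cell marker counts (7 of 8 listed genes found), no filter, a fit of all 12 libraries, the replicate block and each library left out. Leaving out both libraries numbered 1 was added after the data had been seen. Germ, Sertoli, Leydig, peritubular myoid, stromal, endothelial, macrophage and mast cell markers were examined in every library. Intervals of single counts were not used, since both reads of a fragment were counted.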

Additional observations from a re-analysis of the deposited data

How the results depend on the processing

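In Thy1+ cells the number of members called, 0 without a block, was 3 by the edgeR exact test and by DESeq2 (*Gfra1*, *Ret* and *Eomes*), 2 in the fit of all 12 libraries (*Gfra1* and *Ret*), 7 with the replicate block and 4 with the replicate block and both libraries numbered 1 left out; all were lower. It was 0 in the other settings, including each library left out (0 to 0). The genes called lower in all were 274 by the exact test, 326 by DESeq2 and 236 in the fit of all 12 libraries. They were 856 with the replicate block and 766 with the block and both libraries numbered 1 left out. In c-Kit+ cells 2 members were called, 1 in the fit of all 12 libraries and 1 to 2 with 1 library left out, *Etv5* in each. The replicate block changed no call there or between populations. Between populations, 9 members in controls stayed between 8 and 9. The 7 in CKO stayed between 7 and 8, with *Eomes* added by scaling to germ cell marker counts (8) and *Shisa6*, lower, without CKO Thy1+ replicate 1. The interaction called 2 members (*Etv5* and *Ret*) by DESeq2 and 2 with the replicate block, against 0. Over all genes, calls in Thy1+ cells ran from 0 to 1475 and in c-Kit+ cells from 3175 to 5393.

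Scaling to germ cell marker counts moved the median of all genes to 0.35 in Thy1+, 0.33 in c-Kit+ and 0.58 in either population comparison. In c-Kit+ cells it gave 4905 genes higher and 488 lower, against 2542 and 1270. Between control populations it gave 7123 and 80, against 3594 and 1229 (3252 and 1851 by library size only), and between CKO populations 5358 and 61, against 2653 and 872 (2393 and 1390 by library size only, median −0.12). It turned *Etv5* to 0.14 in Thy1+ cells, *Gfra1* to 0.14 and *Lhx1* to 0.16 in c-Kit+ cells, and *Shisa6* to 0.22 between CKO populations. With 1 library left out, some small log2 fold changes changed sign: *Shisa6* ran from −0.20 to 0.61 in Thy1+ cells and from −0.31 to 0.55 between controls, and *Pax7* from −0.44 to 0.54 between CKO populations. In c-Kit+ cells *Pax7* ran from −0.15 to 0.38, *Bcl6b* from −0.013 to 0.14, *Lhx1* from −0.43 to 0.063 and *Ret* from −0.057 to 0.15. Leaving out both c-Kit+ libraries numbered 1 gave *Pax7* −0.18, or −0.26 with the replicate block. *Nanos2*, *Pax7* and *Eomes* had the fewest counts in Thy1+ libraries and the largest standard errors there with the block. Among the members tested in c-Kit+ cells, *Lhx1* had the fewest counts and the largest standard error (0.41 without the block). Having 3 libraries a group limits every comparison.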
